A study of Mus musculus with 2 samples.

Results

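The genes described here are the Slit ligands (Slit1, Slit2, Slit3), the Robo receptors (Robo1, Robo2, Robo3) and the Slit-Robo GTPase activating proteins (Srgap1, Srgap2, Srgap3) of the mouse. They were chosen by name, with earlier results of these data known, and all 9 were found among the 32285 genes of both count matrices. Each was described across the cell classes of the newborn cerebellum and between 2 genotypes of the chemokine receptor gene Cxcr4.

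Slits are large secreted proteins with leucine-rich repeats, and Robos (roundabout receptors) are single-pass receptors of the immunoglobulin superfamily on axons and migrating neurons. Binding of Slit to Robo is best known for repelling axons from the midline and for steering migrating neurons. The srGAPs bind the cytoplasmic tail of Robo and switch off small GTPases such as Cdc42 and Rac1, and their F-BAR domains shape the cell membrane. Robo3 is the divergent member that lets commissural axons cross the midline, and in mammals it binds Slits poorly. In the hindbrain these genes act in the migration of precerebellar neurons and in commissure formation. Slit acting through Robo1 was also described in leukocytes to dampen migration toward CXCL12, the ligand of CXCR4.

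The study made 2 single-cell libraries, a control one of genotype Cxcr4+/+ and a mutant one of genotype Cxcr4+/1013, both of the strain B6.129S2-Cxcr4tm1.1Bala and both at postnatal day 1 (P1). Controls were littermates, per the series' design text. Lobules III and IV of the cerebellum were dissected, dissociated with papain and captured with 10x Genomics 3' v3.1 chemistry. The genotype labels give the mutant as Cxcr4+/1013, a heterozygous germline allele, but the extraction protocol writes Cxcr4+/-, and the genotype label was used. No Cre line, transgene or treatment is named. How many animals were pooled is not stated by the labels. With 1 library per genotype there was no replicate check: every interval below is a 95% interval for counting error only, and every genotype difference is one between 2 libraries.

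After filtering and removal of likely doublets, 7712 control cells with 101548642 UMIs (unique molecular identifiers, each 1 captured transcript) and 7568 mutant cells with 110955312 UMIs remained, with medians of 11921.5 and 13281.5 UMIs per cell. They fell into 33 clusters, named by marker genes without using the 9 genes, and 11 cell classes held at least 100 cells in each library. Class names say which marker list a cluster carried. One class carried Lhx9, Lhx2, Meis2 and Slc17a6 of the list for glutamatergic cerebellar nuclei without enrichment of its marker Tbr1, and is called Lhx9 glutamatergic neurons here. Another carried Gata3, Tal1, Six3 and Sox14, a list for midbrain or brainstem neurons, although the label gives cerebellum, and is called Gata3 neurons. In these last classes the male share of cells that could be assigned a sex differed between libraries, at 28.2% in control and 6.57% in mutant for Lhx9 neurons and 30.8% and 11.8% for Gata3 neurons. In the other 9 classes it lay between 40.8% and 64.8% and was higher in mutant in each. It was 44.0% in control and 64.8% in mutant for the oligodendrocyte lineage, and 43.3% and 60% for ependymal cells. The libraries shared 25 barcode sequences, of which 18 were kept.

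Levels are given in CPM, the UMIs of a gene scaled to the total UMIs of its class. CPM is not scaled for transcript length, so levels are compared between classes for 1 gene, never between genes. Shares of cells with a UMI were taken after thinning each cell to 2000 UMIs, because cells of deeper classes show more genes, and cells with fewer UMIs, between 1 and 67 of each class in each library, were left out.

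Promoter sequence is shown for the 3 receptors because the levels of Robo1 and Robo2 went separate ways in some classes, as described below. Robo1 and Robo2 lie on the same chromosome 16, 845.744 kb apart, on opposite strands. The sequences are the bases before a RefSeq start in GRCm38.p6, read 5′ to 3′ on the gene's strand and cut where a GENCODE exon of the gene begins. Capitals mark letters of a searched motif. The 3′ counts do not tell which start was used.
Robo1, chr16:72662899-72663148, plus strand: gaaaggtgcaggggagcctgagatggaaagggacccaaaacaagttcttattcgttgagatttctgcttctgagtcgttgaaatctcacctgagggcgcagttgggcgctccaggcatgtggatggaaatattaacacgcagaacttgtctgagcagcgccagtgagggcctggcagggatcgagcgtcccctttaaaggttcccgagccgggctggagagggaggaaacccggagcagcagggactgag
Robo2, chr16:74411826-74412075, minus strand: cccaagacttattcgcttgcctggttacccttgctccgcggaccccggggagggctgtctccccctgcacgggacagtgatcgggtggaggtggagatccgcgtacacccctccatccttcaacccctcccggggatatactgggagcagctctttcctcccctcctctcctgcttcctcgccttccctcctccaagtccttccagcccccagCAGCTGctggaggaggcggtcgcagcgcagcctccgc
Robo3, chr9:37433247-37433425, minus strand: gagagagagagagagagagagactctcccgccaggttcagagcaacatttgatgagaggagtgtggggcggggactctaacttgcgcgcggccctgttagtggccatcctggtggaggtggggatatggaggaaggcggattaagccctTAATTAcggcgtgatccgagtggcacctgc
The Robo1 window lies inside the annotated Robo1 gene (chr16:72308306-73046095), before an internal start, and the Robo2 and Robo3 windows adjoin the annotated genes. Motifs of 6 letters were searched on both strands, and the matches do not overlap each other. CAGCTG, an E box of the type bound by Atoh1 and Ptf1a, was found once in the Robo2 window shown, and 13% of 32851 mouse promoters hold it in a window of 250 bases. RefSeq gives 2 other Robo2 windows, before starts upstream of the annotated gene, and neither held any of the searched motifs. TAATTA, a core of LIM homeodomain sites, was found once before Robo3, and 3.84% of promoters hold it in a window of 179 bases. CAGATG, an E box of the NeuroD type, was in none of the 3 windows shown, and 14.4% of promoters hold it in 250 bases and 10.8% in 179. A match describes letters and not a bound site.

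The 3 ligands were highest in different classes, and each kept its highest class in both libraries. Slit2 was highest in Purkinje cells, Slit3 in granule neurons, and Slit1 in Lhx9 glutamatergic neurons and GABAergic interneurons.

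Slit1 (chromosome 19) was the least abundant ligand in UMIs, with 898 in control and 977 in mutant. It reached 41.0 CPM (35.1 to 47.6) in control Lhx9 neurons and 40.6 (34.6 to 47.2) in mutant ones. GABAergic interneurons followed with 36.5 CPM (33.5 to 39.7) in control and 32.1 (29.7 to 34.6) in mutant, and Gata3 neurons with 21.0 (14.7 to 29.3) and 27.7 (19.6 to 38.0). These 3 classes stood above the other 8, of which the next was at most 5.82 CPM in either library. In the granule cell lineage Slit1 was nearly missing, at 0.271 CPM in control and 0.113 in mutant progenitors, with 6 and 3 UMIs. No progenitor cell of either library had a Slit1 UMI at 2000 UMIs per cell, against 6.21% of control and 5.15% of mutant interneurons (25% and 23.3% without thinning). Among 5 interneuron clusters, Slit1 was highest in the one led by Gal, Esm1 and Rprm (cluster 19). It had 74.5 CPM (63.0 to 87.4) there in control and 64.3 (55.0 to 74.7) in mutant. Of the interneuron markers, Pax2 and Slc6a5 were not enriched in cluster 19. Slit1 was lowest in the cluster led by Slc6a5, Galr1 and Pax2 (cluster 16, the Pax2 and Slc6a5 cluster below), with 12.7 and 12.4 CPM. The spread within interneurons was thus 5.86-fold in control and 5.18-fold in mutant. Clusters 11 and 22 were also enriched in Pax2 and Slc6a5.

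Slit2 (chromosome 5) was highest in Purkinje cells, the output neurons of the cerebellar cortex, with 280 CPM (272 to 288) in control and 199 (192 to 206) in mutant. Gata3 neurons had 200 CPM (179 to 222) and 182 (160 to 206), and Lhx9 neurons 154 (143 to 167) and 134 (123 to 146). The Purkinje and Gata3 intervals were apart in control and overlapped in mutant. At 2000 UMIs per cell, Slit2 was detected in 43.8% (39.4 to 48.3) of control and 31.7% (27.3 to 36.3) of mutant Purkinje cells. Without thinning, at median depths of 34360 and 36409 UMIs, the shares were 93.0% and 91.2%. In astroglia the shares at 2000 UMIs were 1.74% and 1.93%, and in granule neurons 1.97% and 1.30%. The level of free RNA in the droplets was not measured, and it was not tested what part of such low shares it gives. Within astroglia, the cluster levels of Slit2 were 16.6 and 17.2 CPM in cluster 6 and 4.68 and 6.96 CPM in cluster 8.

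Outside its 3 highest classes Slit2 marked parts of classes. Unipolar brush cells, the glutamatergic interneurons of the granular layer, had 55.6 CPM in control and 61.8 in mutant, nearly all of it in the cluster led by Grp and Tac2 (cluster 20), with 89.4 CPM (77.8 to 102) and 95.7 (85.5 to 107). The Calb2 cluster (cluster 12) had 7.63 and 10.5 CPM. Granule cell progenitors, which divide in the external granular layer, had 48.0 CPM (45.1 to 50.9) in control and 37.8 (35.5 to 40.2) in mutant. Granule neurons had 12.1 and 10.7 CPM, so the level was lower after cell cycle exit in both libraries. Among interneurons the Pax2 and Slc6a5 cluster was the highest, with 63.3 CPM in control and 76.9 in mutant.

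Slit3 (chromosome 11) was highest in granule neurons, with 177 CPM (170 to 185) in control and 177 (171 to 184) in mutant. Almost all of these UMIs, 2051 of 2097 in control and 2955 of 2993 in mutant, came from 1 cluster (cluster 0), at 344 CPM (330 to 360) and 354 (342 to 367). The granule neuron cluster led by Cntn2 (cluster 1), an adhesion molecule of young granule neurons, had 10.4 and 5.54 CPM, and the one with Nhlh1 (cluster 18) had 1.70 and 0.983. The level of the Nhlh1 cluster came from 3 UMIs in control and 2 in mutant. Slit3 led cluster 0 by fold although it had no part in the clustering. At 2000 UMIs, a Slit3 UMI was found in 38.8% (34.4 to 43.3) of the control cells of cluster 0 and in 39.5% (35.7 to 43.5) of its mutant cells (68.3% and 69.6% without thinning). In progenitors of granule cells the shares were 0.306% and 0.821%. Unipolar brush cells came next, with 59.7 CPM (52.5 to 67.6) in control and 74.1 (67.1 to 81.6) in mutant. No other of the 11 classes passed 22.2 CPM.

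**Figure D1:**
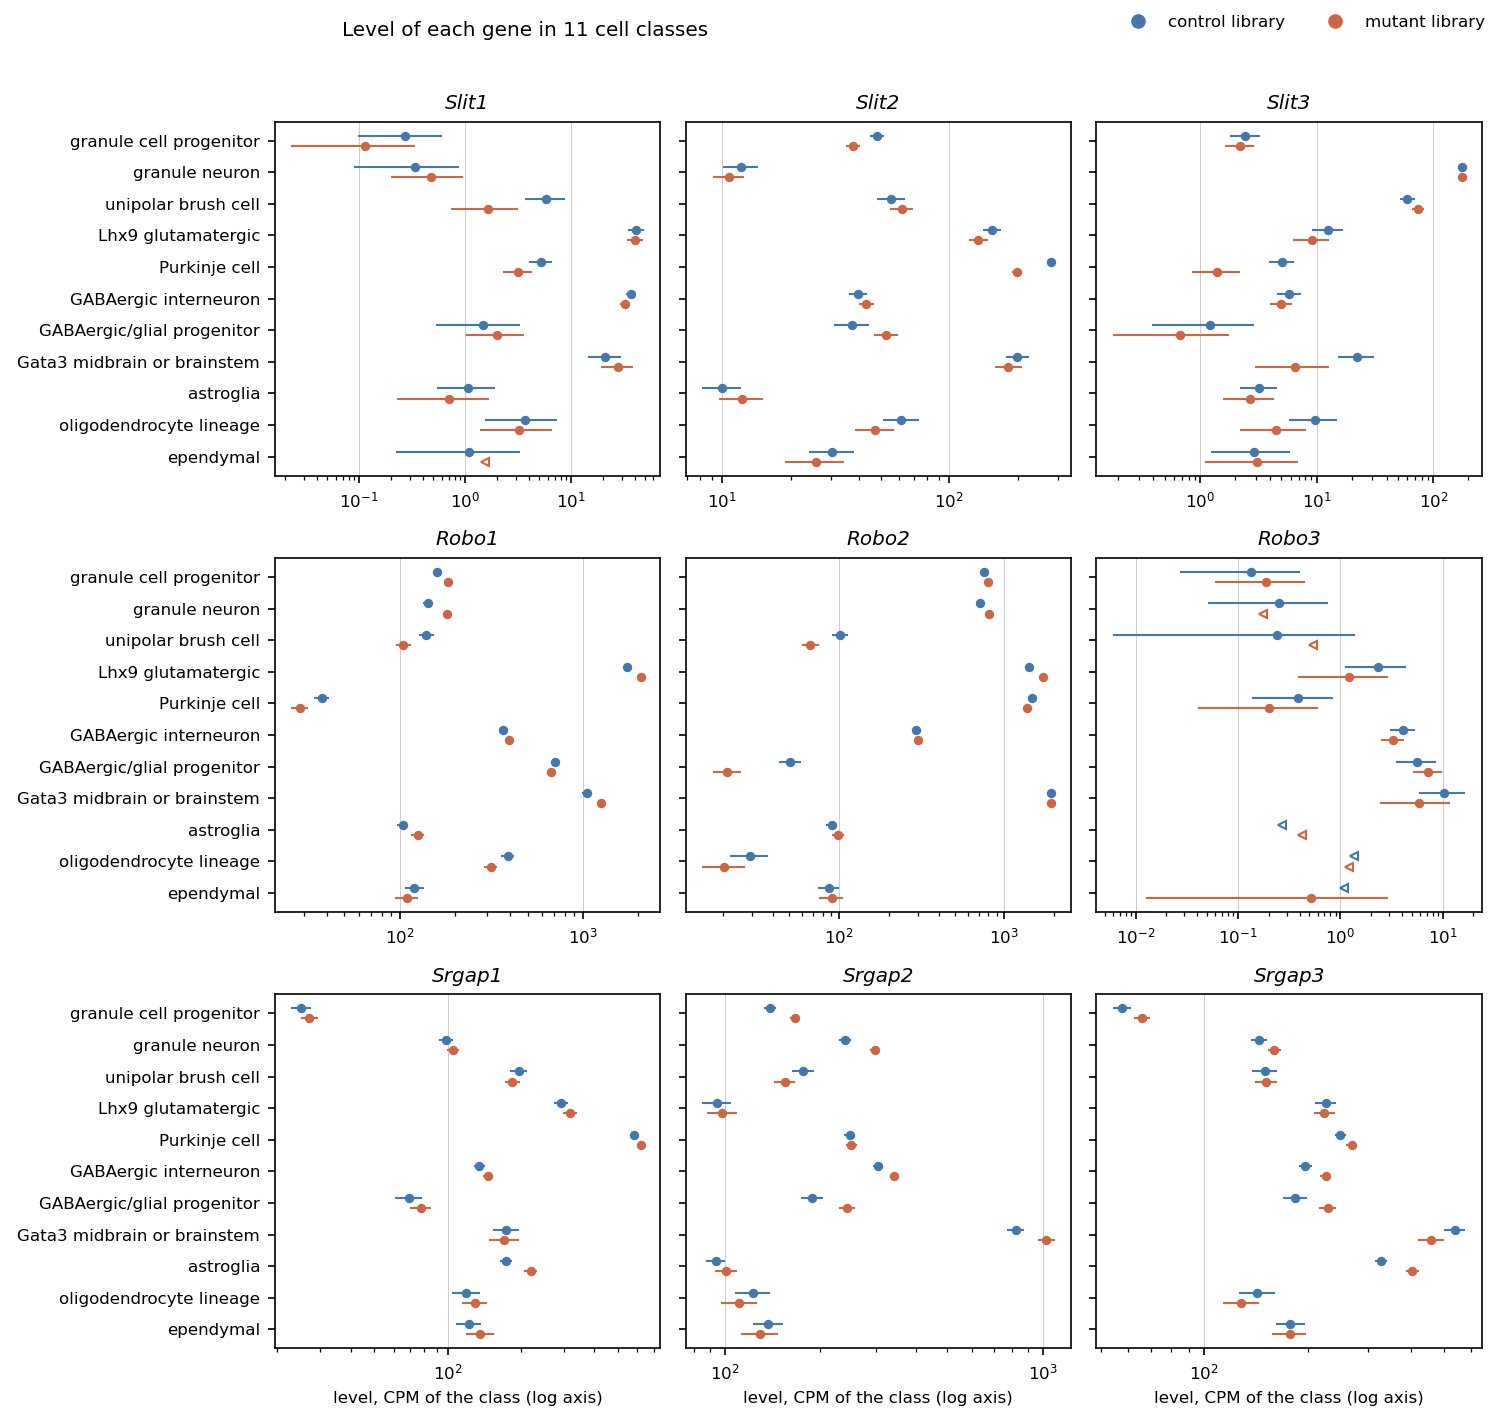
Level of each of the 9 genes (CPM, log axis) in 11 cell classes, with control points in blue and mutant points in orange. Lines are 95% Poisson intervals, and an open triangle marks 0 UMIs, drawn at the level of 3 counts. Slit2 was highest in Purkinje cells, Slit3 in granule neurons, and Robo1 was lowest in Purkinje cells while Robo2 was high there.

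The receptors Robo1 and Robo2 were both high in Lhx9 and Gata3 neurons and parted in some other classes. Robo2 without much Robo1 was seen in Purkinje cells, and Robo1 without much Robo2 in GABAergic or glial progenitors and the oligodendrocyte lineage. Over the 11 classes, the levels of Robo1 and Robo2 as log2(CPM + 1) correlated at r = 0.09 in control and 0.13 in mutant, a description over classes that share a library.

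Robo1 was highest in Lhx9 neurons, with 1752 CPM (1712 to 1792) in control and 2082 (2038 to 2126) in mutant. Gata3 neurons had 1051 CPM (1002 to 1102) and 1266 (1207 to 1327), and GABAergic or glial progenitors, the ventricular zone cells with Ptf1a and Kirrel2, had 704 (678 to 730) and 668 (648 to 690). These 3 classes kept ranks 1 to 3 in both libraries, with neighbours apart in both. Interneurons had 369 CPM in control and 394 in mutant, and the oligodendrocyte lineage 389 and 315. Purkinje cells were the lowest of the 11 classes, with 37.8 CPM (34.8 to 40.9) in control and 28.6 (25.9 to 31.4) in mutant. At 2000 UMIs, 85.6% of control and 85.9% of mutant Lhx9 neurons had a Robo1 UMI, against 7.63% and 5.13% of Purkinje cells. Outside the nervous system lineages, meningeal or vascular fibroblasts, with 171 control and 32 mutant cells, had 390 CPM (367 to 415) and 414 (358 to 476).

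Robo2 was highest in Gata3 neurons, with 1907 CPM (1841 to 1974) in control and 1908 (1836 to 1983) in mutant. Purkinje cells had 1474 CPM (1455 to 1493) and 1371 (1352 to 1390), and Lhx9 neurons 1412 (1377 to 1448) and 1706 (1666 to 1747), so these 2 classes changed places between the libraries. Granule cell progenitors (752 and 791 CPM) and granule neurons (714 and 802 CPM) formed the next group. The lowest classes were GABAergic or glial progenitors, with 50.5 CPM in control and 21.0 in mutant, and the oligodendrocyte lineage, with 28.9 and 20.3. The share of cells with a Robo2 UMI at 2000 UMIs was 93.0% and 90.2% in Purkinje cells, 70.6% and 69.3% in granule neurons, and 8.55% and 2.03% in the oligodendrocyte lineage.

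**Figure D2:**
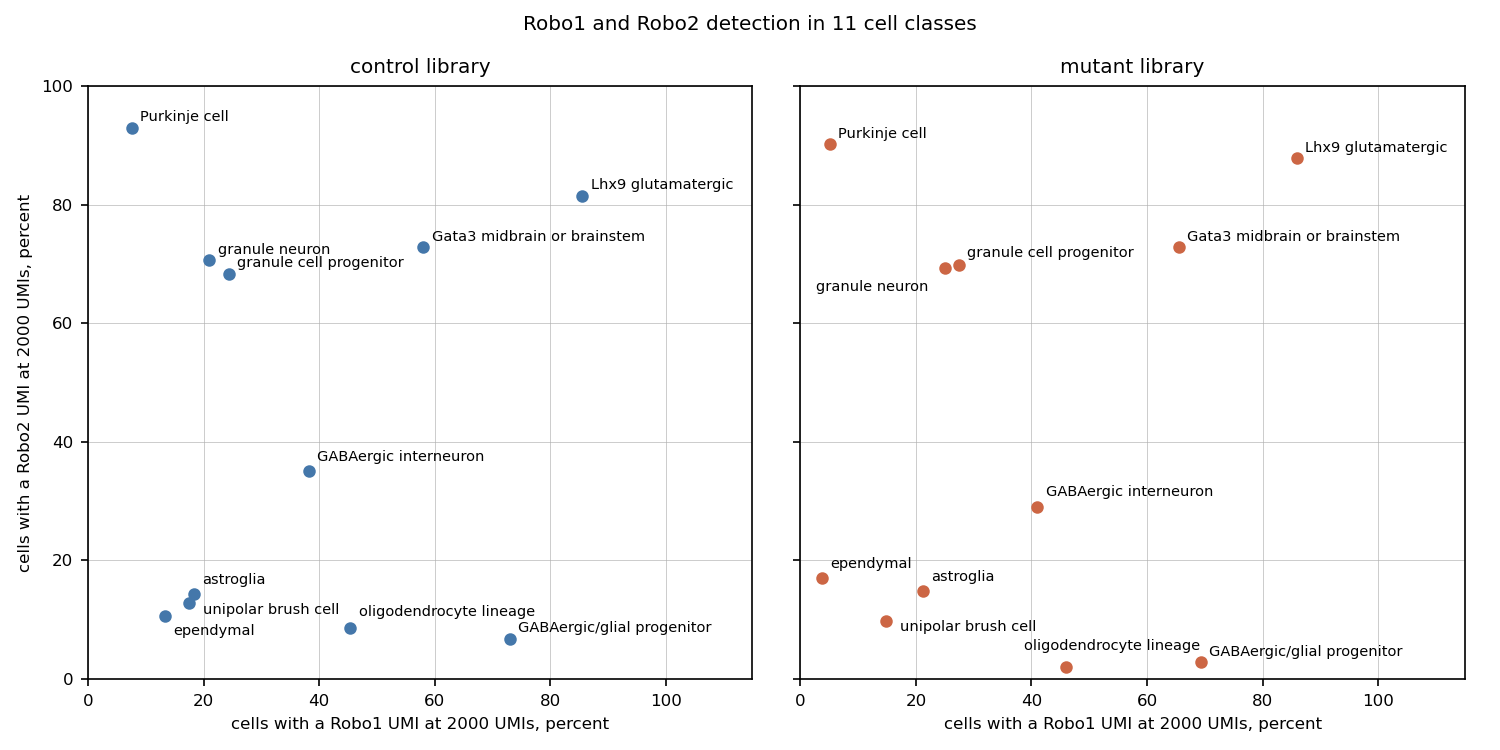
Share of cells (percent) with a Robo1 UMI (horizontal axis) and with a Robo2 UMI (vertical axis) at 2000 UMIs per cell, with 1 point per cell class, control at left and mutant at right. Purkinje cells sit at the upper left in both panels (7.63% and 93.0% in control), GABAergic or glial progenitors at the lower right (73.0% and 6.83%), and Lhx9 neurons at the upper right.

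Within the inhibitory lineage the 2 receptors were not tied to each other. Robo1 was 704 CPM in control progenitors and 668 in mutant ones, and 487 and 517 CPM in the Pax2 and Slc6a5 cluster. It was low in the clusters led by Spock1 (cluster 22, 145 and 147 CPM) and by Sst and Inhba (cluster 14, 83.6 and 60.2 CPM). It was high in the clusters with Nxph1 and Kit (cluster 11, 902 and 915 CPM) and Gal, Esm1 and Rprm (cluster 19, 947 and 1018 CPM). Robo2 was low in progenitors and in the Pax2 and Slc6a5 cluster (40.5 and 26.1 CPM), and in clusters 11, 14 and 19 it ranged from 409 to 518 CPM over both libraries. Cluster 14 was therefore low in Robo1 and high in Robo2, and clusters 11 and 19 were high in both. The spread of Robo1 within interneurons was 11.3-fold in control and 16.9-fold in mutant, and that of Robo2 12.5-fold and 19.9-fold.

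Robo3 was rare, with 126 UMIs in control and 134 in mutant. The highest of the 5 interneuron clusters was the Pax2 and Slc6a5 cluster, with 15.4 CPM (11.3 to 20.5) from 46 UMIs in control and 11.6 (8.79 to 15) from 57 in mutant. GABAergic or glial progenitors had 5.67 CPM (3.59 to 8.51) and 7.24 (5.24 to 9.75), and Gata3 neurons 10.2 (5.96 to 16.4) and 5.83 (2.52 to 11.5). No pair of neighbours in the order of classes was apart in both libraries. Astroglia and the oligodendrocyte lineage had 0 Robo3 UMIs in both libraries, where 3 counts would be 0.268 and 0.425 CPM in astroglia. In the Pax2 and Slc6a5 cluster 3.17% of control and 1.83% of mutant cells had a Robo3 UMI at 2000 UMIs (10.3% and 8.09% without thinning). None of 1308 control and 1461 mutant granule cell progenitors had one at that depth, which allows shares of up to 0.229% and 0.205% at 2000 UMIs. Without thinning 3 control (0.224%) and 5 mutant progenitors (0.340%) had 1.

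**Figure D3:**
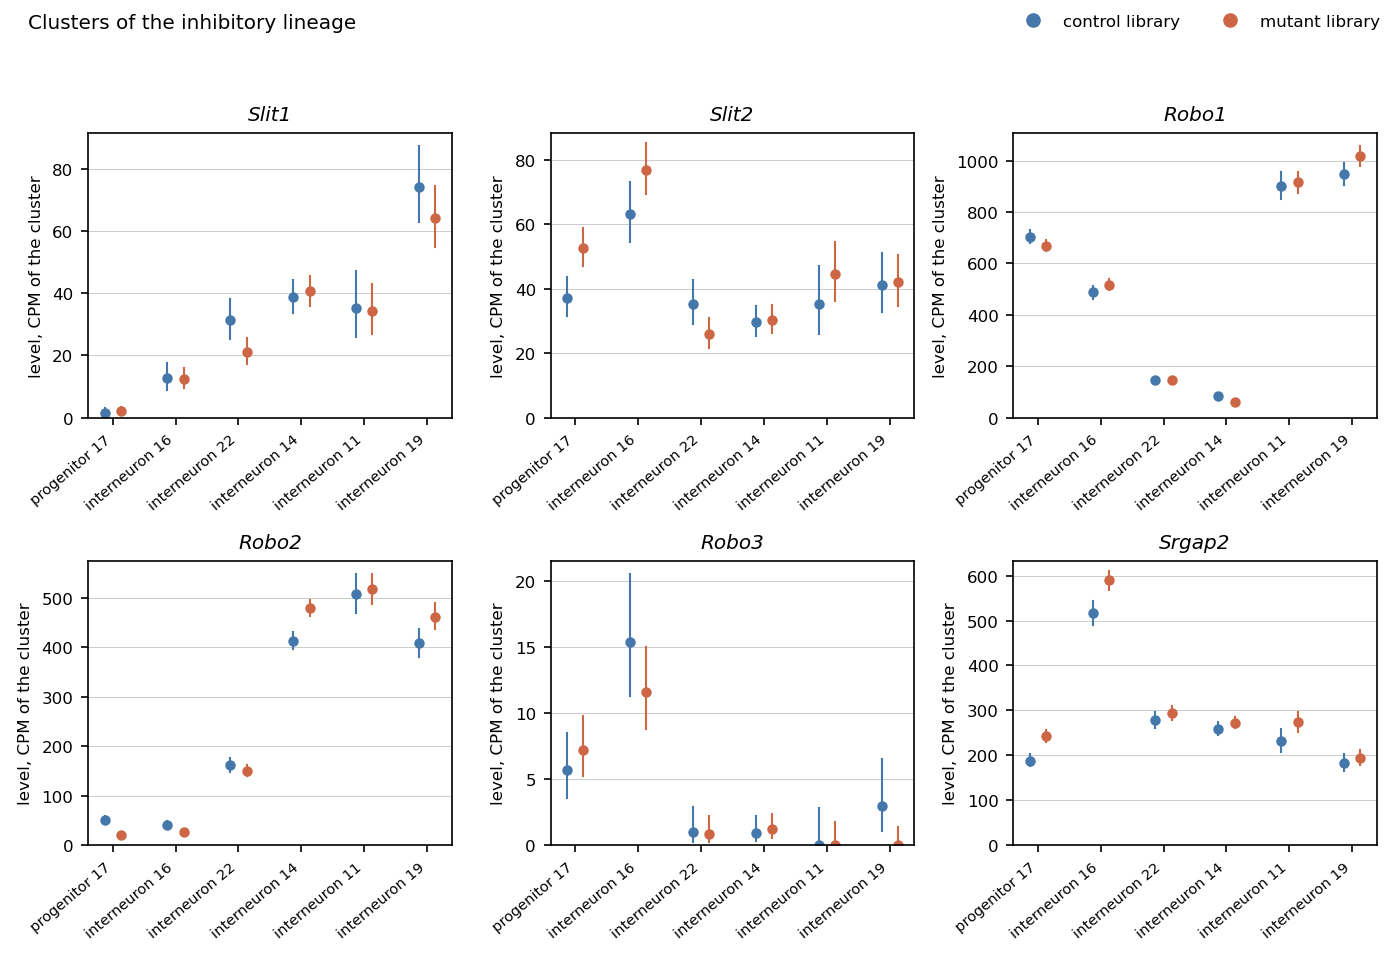
Level (CPM, linear axis from 0) of 6 of the genes in the GABAergic or glial progenitor cluster and 5 GABAergic interneuron clusters, in control (blue) and mutant (orange), with 95% Poisson intervals. Robo3 was highest in interneuron cluster 16, Slit1 in cluster 19, Robo1 was lowest in cluster 14, and Robo2 was lowest in progenitors and cluster 16.

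Along the granule cell lineage Robo2 was lowest in the youngest neurons. It had 731 CPM (716 to 746) in control and 741 (727 to 755) in mutant progenitors with histone genes and Top2a (cluster 7), 884 and 974 in those with S phase genes (cluster 4), and 579 and 613 in those with Cdc20 and Ccnb2 (cluster 5). The Nhlh1 cluster of the youngest granule neurons had 299 CPM (274 to 326) in control and 298 (275 to 323) in mutant. The Cntn2 cluster had 683 and 767, and cluster 0 had 857 (834 to 881) and 953 (933 to 975). Robo1 was also lowest in the Nhlh1 cluster, with 88.2 CPM (74.9 to 103) and 126 (111 to 142). Slit2 took the other course: 65.1 and 53.2 CPM in cluster 5, and 10.6 and 6.35 in cluster 0. The clusters are snapshots ordered by textbook markers, and no time was measured.

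**Figure D4:**
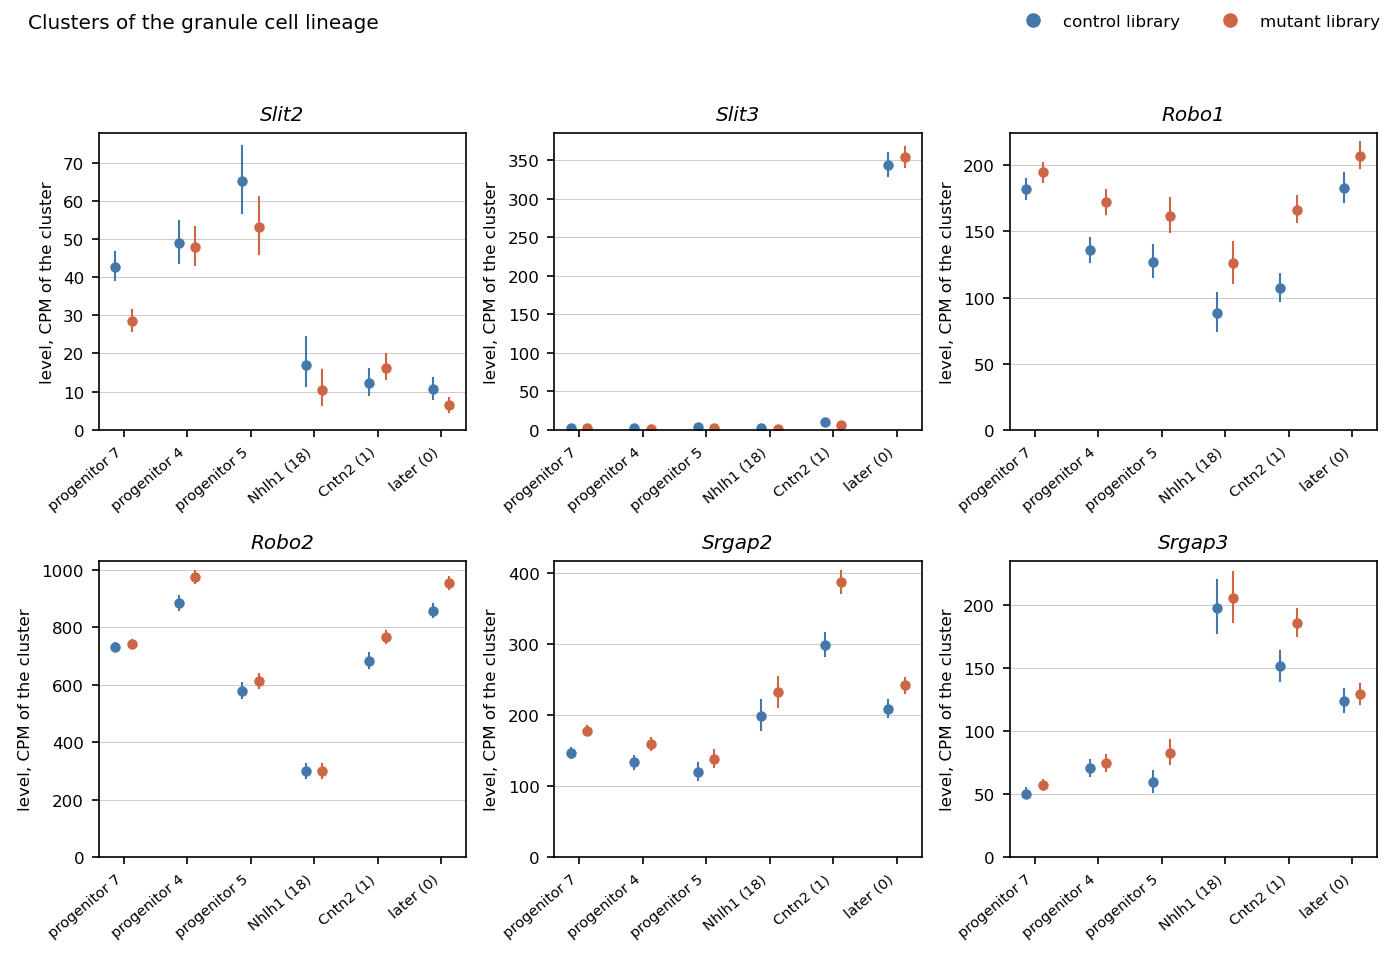
Level (CPM, linear axis from 0) of 6 of the genes in 3 clusters of granule cell progenitors and 3 of granule neurons, ordered by known markers, in control (blue) and mutant (orange), with 95% Poisson intervals. Slit3 was near 0 until cluster 0, where it stood at 344 and 354 CPM, and Robo2 was lowest in the Nhlh1 cluster.

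Ligand and receptor were often detected in the same cells where both were common in a class. Such shares rise with the share of each gene alone, so by themselves they do not show a link between 2 genes. In Purkinje cells thinned to 2000 UMIs, 39.8% in control and 28.9% in mutant had both Slit2 and Robo2. Robo2 was found in 90.8% of Slit2-positive and 94.6% of Slit2-negative control Purkinje cells, and in 91.2% and 89.8% of mutant ones, so detection of one said little about the other. In granule neuron cluster 0, 29.2% and 30.2% had both Slit3 and Robo2. In the Grp and Tac2 cluster of unipolar brush cells, 33 control and 48 mutant cells had Slit2, and 1 of each also had Robo2. Robo2 was thus found in 3.03% of Slit2-positive and 5.70% of Slit2-negative control cells, and in 2.08% and 5.88% of mutant ones, too few cells to tell these shares apart. Both Robo1 and Robo2 were detected in 71.9% of control and 77.3% of mutant Lhx9 neurons, against 13% and 10.4% of interneurons.

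The srGAPs were detected in more classes than the ligands, and each had its own order. Srgap1 (chromosome 10) was highest in Purkinje cells, with 585 CPM (573 to 597) in control and 619 (607 to 632) in mutant, followed by Lhx9 neurons with 292 and 317. Granule cell progenitors were the lowest, with 25 CPM (23.0 to 27.2) and 27.1 (25.1 to 29.1), and granule neurons had 98.2 and 105. Its order over classes was the steadiest of the 9 genes, with 8 of 11 classes at the same rank in both libraries. Endothelial cells, with 82 control and 38 mutant cells, had 254 and 250 CPM of Srgap1.

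Srgap2 (chromosome 1) was highest in Gata3 neurons, with 823 CPM (780 to 867) in control and 1026 (973 to 1081) in mutant, and then in interneurons, with 303 and 342. Among interneurons the Pax2 and Slc6a5 cluster led again, with 517 CPM (491 to 543) and 590 (568 to 612). Lhx9 neurons, where both Robo1 and Robo2 were high, were among the lowest classes for Srgap2, with 94.5 and 98.0 CPM. Microglia had 269 and 274 CPM from 53 and 43 UMIs, and border macrophages 235 and 280 from 66 and 100 UMIs. The receptors rested on few cells there: 1 mutant border macrophage held 17 of that class's 21 Robo1 UMIs, and 1 control microglial cell 13 of 22 Robo2 UMIs.

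Srgap3 (chromosome 6) was highest in Gata3 neurons, with 536 CPM (502 to 573) in control and 457 (422 to 495) in mutant, and next in astroglia, with 327 (316 to 337) and 404 (389 to 419). The astroglial cluster with Gfap and Aqp4 among its leading genes (cluster 6) had 384 and 466 CPM. The one led by Gdf10, a marker of Bergmann glia (cluster 8), had 281 and 339. Both clusters were enriched in Gdf10 and Aqp4. Granule cell progenitors were the lowest, with 57.7 and 65.9 CPM, and the Nhlh1 cluster of granule neurons had 197 and 205. Srgap3 was close to 0 in endothelial cells, with 6.30 and 7.60 CPM, where Srgap1 and Srgap2 were not.

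The genes whose levels over the 11 classes were most like each member were ranked by the lower of the 2 libraries' correlations, among 13809 genes. For Slit1 these were Camk1g (r = 0.95 and 0.95), Cntn4, Syndig1l, Spock1 and Cacng3. For Slit2 they included Hlcs (0.91 and 0.91), Cntnap5b, Sestd1 and Il1rapl2, and for Slit3 they included Crhr1 (0.93 and 0.90), Cacna1e, Fat2 and Cbln1, the last a synapse organiser secreted by granule cells. Robo1 was followed by Apaf1 (0.92 and 0.92), Tmem39b, Dennd1b, Zbtb9 and Tnrc6c, and Robo2 by Runx1t1 (0.86 and 0.84), Ablim3, St6galnac5, Zmat4 and Ensa. Robo3 was most like Lhx5 (0.93 and 0.90) and Tfap2b, transcription factors of the GABAergic lineage, then Klhl35, Pxylp1 and Fam168b. For Srgap1 they were Rab18 (0.94 and 0.94), Tmem141, Fam124a, Svbp and Zfp512b, and for Srgap2 Arhgap40 (0.87 and 0.86), Emx2, Nrxn3, Gad2 and Esyt3. Srgap3 was followed by Gria1 (0.88 and 0.92), Fat4, Sybu, Ppp2r3a and Unc13b. Each r describes 11 classes of the same libraries. Among the members the closest pairs were Robo1 with Robo3 (0.73 and 0.66) and Srgap1 with Srgap3 (0.67 and 0.65).

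Between the genotypes the members differed little. Of 99 pairs of gene and class, 79 had at least 50 UMIs over both libraries, and 4 of these (5.06%) differed at least 1.5-fold, all 4 lower in mutant. Over all genes and the same classes, 7274 of 125798 pairs (5.78%) differed as much, so the members' share was near the background. Class by class the background was 4.09% in interneurons, 5.25% in GABAergic or glial progenitors, 5.55% in Purkinje cells, 6% in astroglia, 7.04% in ependymal cells and 8.20% in Lhx9 neurons. It was 4.49% in granule cell progenitors, 4.47% in granule neurons, 7.67% in Gata3 neurons, 6.67% in the oligodendrocyte lineage and 5.92% in unipolar brush cells. In Purkinje cells 2 of 8 members differed at least 1.5-fold, in GABAergic or glial progenitors 1 of 7, and in unipolar brush cells 1 of 7. In the other 8 classes none did. Of all genes in Purkinje cells, 281 were at least 1.5-fold higher and 441 lower in mutant. The numbers were 410 and 165 in GABAergic or glial progenitors, and 273 and 359 in unipolar brush cells. The median log2 ratio of the compared members was -0.25 in Purkinje cells and 0.31 in GABAergic or glial progenitors, where all genes had -0.01 and 0.05. In the other classes it ran from -0.23 to 0.27.

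The ligands were lower in mutant Purkinje cells. Slit2 had 4372 UMIs in control and 2960 in mutant, a ratio of 0.710 (0.677 to 0.744), which did not reach 1.5-fold. In the main Purkinje cluster alone (cluster 10, 426 and 399 cells) the ratio was 0.717 (0.684 to 0.753), with a median of 7 UMIs per cell in control (quartiles 4 and 13) and 5 in mutant (2 and 9). There 4.46% of control and 8.27% of mutant cells had none, and the 43 control and 40 mutant cells with most Slit2 held 30.5% and 32.9% of its UMIs, so the UMIs were spread over cells in much the same way in both libraries. A second cluster with Purkinje markers and few UMIs per cell (cluster 27, median 4414, led by long noncoding RNAs) held 86 control and 31 mutant cells, with 684 and 596 CPM. The ratio was 0.823 in female and 0.597 in male cells, below 1 in both.

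Slit3 in Purkinje cells was 5.05 CPM in control and 1.41 in mutant, from 79 and 21 UMIs, a ratio of 0.279 (0.164 to 0.456). With no doublet removal the ratio was 0.690. At 2000 UMIs 1.61% of control and 0.466% of mutant Purkinje cells had a Slit3 UMI, against the 0.306% and 0.821% of granule cell progenitors, and the interval of the mutant share, 0.0565 to 1.67, reached both. Part of the control UMIs, 13 of 79, lay in cluster 27, where mutant cells had 0. Slit1 in Purkinje cells was 5.18 CPM and 3.15, from 81 and 47 UMIs, a ratio of 0.609 (0.415 to 0.882), and it no longer reached 1.5-fold without doublet removal (0.723), with doubled removal (0.769), or in female (0.715) or male (0.698) cells alone.

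Robo2 was lower in mutant in 2 classes where its level was low. In GABAergic or glial progenitors it was 50.5 CPM in control and 21.0 in mutant, a ratio of 0.416 (0.331 to 0.523). One control cell held 52 of the 205 control UMIs, and without the top cell of each library the ratio was 0.502. In unipolar brush cells it was 102 CPM and 67.2, a ratio of 0.658 (0.571 to 0.758), with 166 and 116 CPM in the Calb2 cluster and 57.1 and 35.2 in the Grp and Tac2 cluster. With no doublet removal the 2 ratios were 1.02 and 1.08. The unipolar brush cell ratio reached 1.5-fold in 8 of 13 alternatives and ran from 0.338 to 1.08. It also fell short of 1.5-fold with the TMM (0.673) and DESeq2 (0.673) factors, with doubled doublet removal (0.684) and in female cells (0.769). In the classes with much Robo2 the ratio lay closer to 1, at 0.930 (0.913 to 0.948) in Purkinje cells, 1.05 (1.03 to 1.07) in granule cell progenitors and 1.12 (1.09 to 1.16) in granule neurons. The part of free RNA and of remaining doublets in the 2 low classes was not tested beyond these values.

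Robo1 was higher in mutant granule neurons, with 142 CPM (136 to 149) in control and 182 (175 to 188) in mutant, a ratio of 1.28 (1.20 to 1.36) that did not reach 1.5-fold. The Cntn2 cluster within them had 107 and 167 CPM, a ratio of 1.56 (1.39 to 1.74), and cluster 0 had 183 and 207. For single clusters the share of all genes past 1.5-fold was not computed. In Lhx9 neurons the ratio was 1.19 (1.15 to 1.23), and 1.21 (1.17 to 1.254) in female cells alone, and for Robo2 it was 1.21 (1.17 to 1.251) and 1.31 (1.26 to 1.37). Robo1 was lower in mutant unipolar brush cells, with a ratio of 0.748 (0.665 to 0.841), and Purkinje cells, with 0.757 (0.667 to 0.859). The Purkinje ratio was 1.17 with doubled doublet removal and 1.05 in female cells, so its direction was not stable.

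Slit2 was lower in mutant granule cell progenitors, with a ratio of 0.787 (0.721 to 0.859). The lowest ratio was in cluster 7, with 42.7 and 28.4 CPM and a ratio of 0.666 (0.585 to 0.758), again without an all-gene share for the cluster. In GABAergic or glial progenitors it was 37.2 CPM in control and 52.7 in mutant, a ratio of 1.42 (1.16 to 1.73). Slit3 in granule neurons had a ratio near 1 (0.947 to 1.06), with 177 CPM in both libraries. With the low-depth clusters counted into the classes whose markers they carry, an alternative added after seeing the data, it was 236 CPM in control and 190 in mutant, a ratio of 0.805 (0.766 to 0.847). It was 0.803 with clusters at resolution 0.5, 0.869 with marker gates and 1.13 in female cells.

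Among the srGAPs no compared class, with at least 100 cells in each library, reached 1.5-fold. Srgap2 was higher in mutant granule neurons (1.24), GABAergic or glial progenitors (1.29) and Gata3 neurons (1.248), and lower in unipolar brush cells (0.877). Srgap1 (1.26) and Srgap3 (1.24) were higher in mutant astroglia, and Srgap3 was lower in mutant Gata3 neurons (0.853, 0.769 to 0.946).

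In all, 26 of the 79 intervals lay above 1 and 16 below. The share of such intervals over all genes was not computed, so these counts do not set the 9 genes apart from others. The nuclear noncoding RNA Malat1, which moves with the share of nuclear RNA, was higher in mutant in 9 of the 11 classes, with ratios from 0.946 to 1.26. It was below 1 in Purkinje cells (0.952) and the oligodendrocyte lineage (0.946). Its part in the ratios of the 9 genes, which are long genes except Robo3 (17.578 kb), was not tested, and the labels do not say whether introns were counted.

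**Figure D5:**
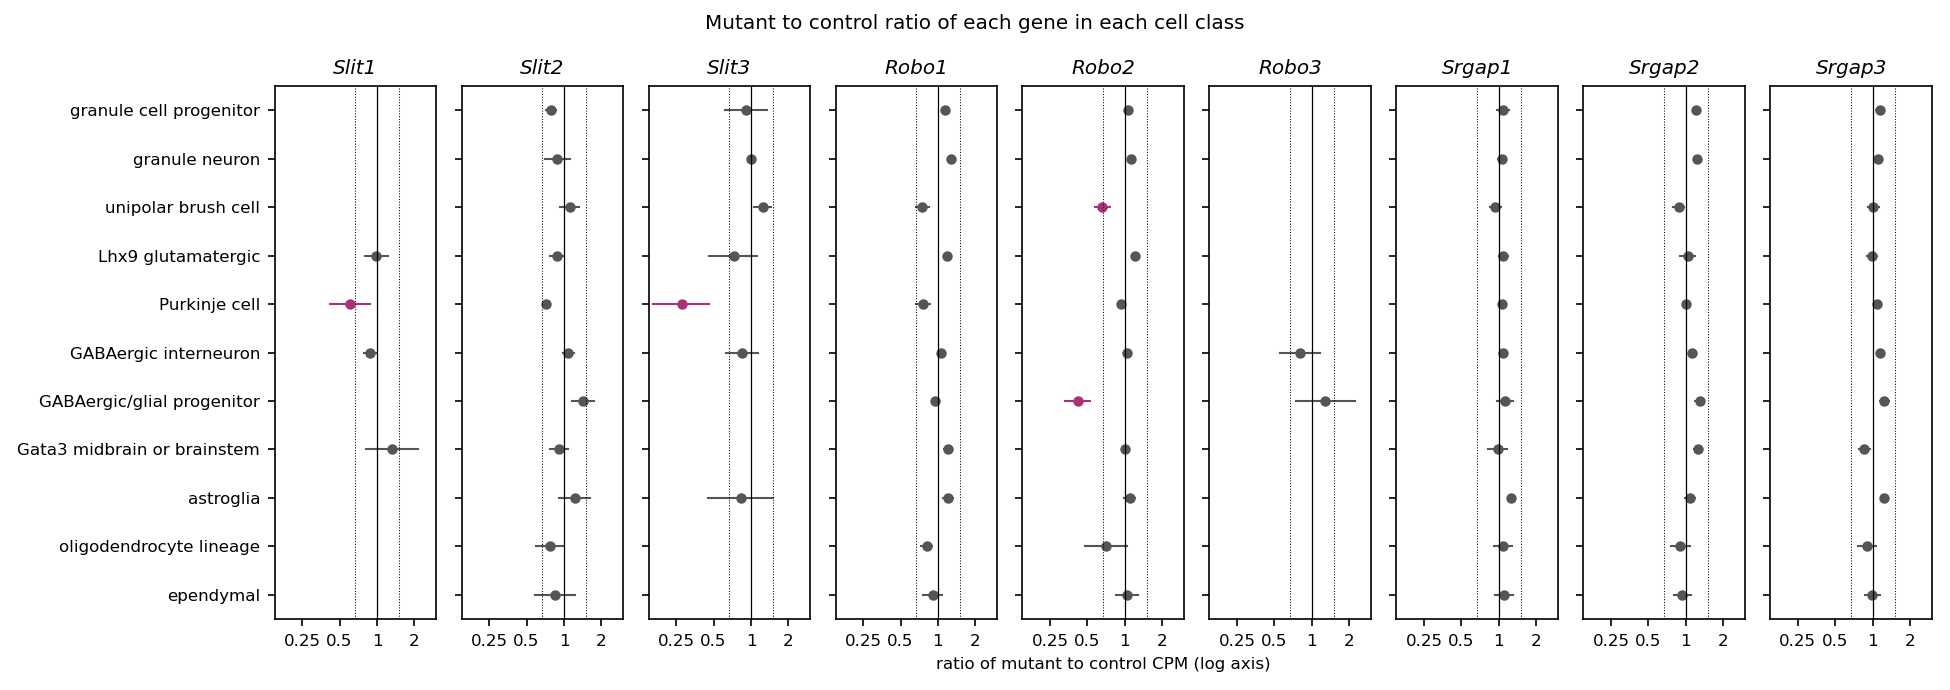
Ratio of mutant to control CPM (log axis) of each gene in each class with at least 50 UMIs over both libraries, with exact conditional binomial 95% intervals. Solid lines mark a ratio of 1, dotted lines 1.5-fold in either direction, and purple points the 4 pairs at least 1.5-fold apart: Slit1 and Slit3 in Purkinje cells, and Robo2 in unipolar brush cells and GABAergic or glial progenitors.

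The rest of the pathway was described with a list of 45 other genes: further ligands, receptors and co-receptors, genes that sort or shed Robo receptors, enzymes of heparan sulphate synthesis (the sugar that Slit binding needs), and cytoskeletal effectors. Of 450 compared pairs of gene and class 12 (2.67%) differed at least 1.5-fold, 2 higher and 10 lower in mutant, against the 5.78% of all genes. Among all genes the more frequent direction varied by class. Dcc, a netrin receptor that Robo can silence, was 52.8 CPM in control and 302 in mutant ependymal cells, a ratio of 5.71 (4.75 to 6.90), but 1 cell held 29.9% of the control and another 37.4% of the mutant UMIs. Ext1, which polymerises heparan sulphate, was 48.3 and 30.3 CPM in Purkinje cells, a ratio of 0.626 (0.556 to 0.705). Nell1, a secreted relative of the Robo3 ligand Nell2, was 164 and 251 CPM in Gata3 neurons, a ratio of 1.54 (1.31 to 1.81). Dscam, a cell adhesion receptor, was 8.30 and 4.25 CPM in astroglia, a ratio of 0.512 (0.327 to 0.780). The other 8 were lower in mutant, with ratios from 0.526 to 0.662: Hs6st1 in unipolar brush cells and in the oligodendrocyte lineage, Cap2 in Purkinje cells, Nck1 in ependymal cells, Abl1 in Gata3 neurons, Plxna1 in GABAergic or glial progenitors, and Gpc1 and Prrg4 in unipolar brush cells. The intervals of Gpc1 and Prrg4 included 1.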

How the data were processed

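The 9 genes, the pathway list and the cell type markers were chosen with earlier results of these data known. The deposited matrices held raw counts of UMIs per gene and barcode, made by the authors with Cell Ranger 7.2 on mm10 after bcl2fastq 2.20.0.4222, as listed in the submitters' processing notes. Whether introns were counted is not stated. The deposited barcode and feature lists held only names. All deposited columns were used.

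Of 9586 control and 9551 mutant barcodes, 8353 and 8194 passed a minimum of 500 genes and a maximum of 10% mitochondrial UMIs. Scrublet in scanpy 1.11.5 scored doublets per library, and the highest scores were removed at 0.8% per 1000 barcodes (641 and 626 barcodes, against 421 and 335 at Scrublet's own threshold). Both libraries were clustered together without integration, on 2000 variable genes without the 9 members, 30 principal components, 15 neighbours and Leiden resolution 1. Clusters were named by enriched markers. Clusters 24 and 25, with few UMIs per cell and no marker of their list among the leading genes, stayed unnamed. Cluster 21, with few UMIs per cell and too few enriched markers of any list, also stayed unnamed. So did cluster 31, led by genes of another cell type (S100a8 and S100a9). This was decided after the data were seen. Gating by markers alone was an alternative.

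UMIs were summed per class and scaled to CPM with exact Poisson intervals. Ratios carry exact conditional binomial intervals and shares Clopper-Pearson intervals, and a share of 0 carries the limit of 3 counts. A pair of gene and class counted as different at 1.5-fold with at least 50 UMIs. No p-value was computed, since each genotype had 1 library. On simulated counts with 200 genes changed 2-fold, 100% were found in granule neurons (12618 genes), 99.5% in Purkinje cells (13016) and 98.5% in Gata3 neurons (7929). Of the unchanged genes 1.39%, 1.36% and 3.40% also passed 1.5-fold. These counts held counting error only, and the changed genes had more than the minimum of 50 UMIs. The simulation thus checks the calculation, not the error between real libraries. In the real data 4.47%, 5.55% and 7.67% of all genes in these classes passed 1.5-fold. Scale factors of edgeR 4.0.16 (TMM) and DESeq2 1.42.0 were alternatives. Named were all 9 members, the 5 genes most like each over classes (some are not reported here), and the pathway genes past 1.5-fold, with values for the 4 whose interval bound lay farthest from 1. The order of classes by marker gates, other filters and each sex alone were also tried. Promoter sequences came from RefSeq (GRCm38.p6), which had windows for 8 of the 9 members, Slit1 being the other.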

Additional observations from a re-analysis of the deposited data

Results flagged for a closer look

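Slit2 did not go one way between the libraries over the cell classes. Its ratio of mutant to control CPM was 0.710 (95% interval 0.677 to 0.744) in Purkinje cells, 0.787 (0.721 to 0.859) in granule cell progenitors and 0.768 (0.594 to 0.992) in the oligodendrocyte lineage, and 1.42 (1.16 to 1.73) in GABAergic or glial progenitors. The oligodendrocyte ratio was 1.249 with doubled doublet removal. Robo1 likewise had a ratio of 1.28 (1.20 to 1.36) in granule neurons and ratios of 0.757 (0.667 to 0.859) in Purkinje cells and 0.748 (0.665 to 0.841) in unipolar brush cells. The Purkinje ratio of Robo1 was above 1 in female cells and with doubled doublet removal. In both genes the differences between classes were not tested, since each class had 1 library per genotype.

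Slit3 was also high in an unnamed cluster outside the comparisons (cluster 25), with 1105 CPM (1034 to 1181) in control and 706 (627 to 792) in mutant. The cluster held 326 control and 88 mutant cells with a median of 2348.5 UMIs, had 3 of 9 granule neuron markers enriched, and was led by Slit3. Robo2 was 1280 and 1207 CPM there.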

How the results depend on the processing

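No paired analysis was possible because each genotype had 1 library, and for the same reason no replicate could be left out. The 4 pairs of member and class at least 1.5-fold apart became 10 with a minimum of 10 UMIs, 17 at a lower fold and 7 with marker gates, and were 3 to 6 under the other alternatives. The 12 pathway pairs became 22 with a minimum of 10 UMIs. A lower minimum or a lower fold lets more pairs of any genes pass. The pairs compared and the share of all genes past the limit are not given for these alternatives. The counts under them therefore do not set the members or the pathway genes apart from other genes. The highest class of each gene in each library, 18 in all, was the same in 10 with marker gates, under which the Gata3 class fell under 100 cells, and in 14 with a stricter barcode filter, under which the Purkinje class did. By share of cells it was the same in 18 at 4000 UMIs and in 8 without thinning. Without doublet removal the Robo2 ratio was 1.02 in GABAergic or glial progenitors and 1.08 in unipolar brush cells, against 0.416 and 0.658, and the cause was not tested. Of 42 pairs whose interval left out 1, 32 kept their side of 1 under every alternative run, and 10 changed it at least once. The 2 alternatives on clusters with few UMIs were added after seeing the data and gave 5 and 4 pairs. TMM moved class ratios by -0.07 to 0.03 on the log2 scale. Levels of a few UMIs, such as Robo3 outside the inhibitory lineage and Gata3 neurons, were limited by depth.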

Other observations

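Low-depth cells with astroglial markers (unnamed cluster 24, 301 control and 65 mutant cells, median 1672.5 UMIs) had 643 CPM (578 to 715) of Srgap3 in control and 474 (373 to 593) in mutant, above the 327 and 404 of named astroglia. The low-depth Purkinje cluster had 4374 CPM (4161 to 4596) of Robo2 in control and 3695 (3417 to 3990) in mutant, against 1406 and 1343 in the main Purkinje cluster, and 1025 and 1073 CPM of Srgap1 against 574 and 614.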
